A study of Mus musculus with 12 samples.

Results

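The genes described here code for the subunits of the mitochondrial respiratory chain and of ATP synthase. They were taken from the count table by gene symbol: the Nduf, Sdh, Uqcr, Cox and Atp5 families of the nucleus and the protein genes of mitochondrial DNA (mtDNA), without pseudogenes named as such, and with 100 or more counts summed over the 12 livers. This gave 90 of 55359 genes, 79 of them nuclear and 11 mitochondrial. By complex, the nuclear genes were 36 of complex I, 4 of complex II, 8 of complex III, 14 of complex IV and 17 of complex V. All 90 passed the filter on low counts that left 15274 genes for testing. Just inside the limit lay Ndufs6b with 124 counts, mt-Nd4l with 135 and Cox7a1 with 308. Just outside lay mt-Nd3 with 95, Cox4i2 with 89, mt-Atp8 with 78, Cox6b2 with 71 and Cox6a2 with 52. Ndufb1-ps, with 19289 counts, was left out by its name alone.

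The samples were bulk liver sections of male C57BL/6NTac mice, 4 in each of 3 groups. The lean group was kept on normal chow and injected with Control-mRNA in lipid nanoparticles (LNPs). The HFD control group was fed a high-fat diet (HFD) and injected with Control-mRNA in LNPs, and the NM-FGF19 group had the same diet and LNPs carrying mRNA for NM-FGF19, a non-mitogenic form of the gut hormone FGF19. Injections were given once a week for 6 weeks on top of the diets, and livers were taken 24 h after the last of them. The labels give the time on diet as 28 weeks in one place and as 21 weeks before treatment in another, and call the mice 24 weeks old. The HFD control columns of the table carry the name mOX40L, which the labels do not explain. Each library held between 23743415 and 33257260 counts. Levels are given as CPM, counts scaled to a fixed library size after TMM scaling, which aligns the bulk of genes between libraries.

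Complex I (NADH dehydrogenase) and complex II (succinate dehydrogenase) pass electrons from nutrients to coenzyme Q. Complex III hands them on to cytochrome c, complex IV (cytochrome c oxidase) passes them to oxygen, and ATP synthase, or complex V, uses the proton gradient built up by complexes I, III and IV to make ATP. The subunits come from both genomes: mtDNA, transcribed inside the organelle as long precursors from both strands, codes for core subunits of complexes I, III, IV and V, and nuclear genes code for the others and for all of complex II. Hepatocytes are rich in mitochondria and use this chain to oxidise fatty acids.

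The mitochondrial genome has copies in nuclear DNA, and a read from such a stretch has more than 1 possible origin. In the GENCODE M21 annotation of the mouse build GRCm38, 7 annotated pseudogenes at chr1:24611535-24616197 repeat a run of mtDNA from mt-Co1 to mt-Nd4. The authors' own build was mm39, so these positions are not on their coordinates. The opening 101 bases, 1 read length, of mt-Co3, a core subunit of complex IV, and of its copy Gm28437 are shown because they do not differ:
mt-Co3: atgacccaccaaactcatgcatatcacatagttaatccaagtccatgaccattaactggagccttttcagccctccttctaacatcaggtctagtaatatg
Gm28437: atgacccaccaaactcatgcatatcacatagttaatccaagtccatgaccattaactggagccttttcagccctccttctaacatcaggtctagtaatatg
The copy matched mt-Co3 over 783 aligned bases with 0 mismatches. The copy of mt-Co1, Gm29216, is shown for contrast, because it covers only the end of the gene, 492 bases from base 1054 on, and starts with 6 mismatches, here in capitals:
mt-Co1: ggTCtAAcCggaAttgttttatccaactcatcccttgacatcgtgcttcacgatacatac
Gm29216: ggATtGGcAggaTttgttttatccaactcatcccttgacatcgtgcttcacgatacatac

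The mitochondrial genes fell into a high and a low set, and all genes with 90% or more of their windows copied in annotated nuclear genes lay in the low one. Of 13 mitochondrial protein genes, 5 had 97.6% to 99.9% of their 101-nt windows repeated letter for letter in an annotated nuclear gene: mt-Co2, mt-Co3, mt-Atp6, mt-Nd4l and mt-Nd3. Together these 5 held 3181 counts over the 12 libraries, and the other 8 held 16778208. In lean livers mt-Co3 stood at 4.90 CPM per kb, mt-Co2 at 5.16 and mt-Atp6, a subunit of ATP synthase, at 5.57. In the same livers mt-Co1, with 30.7% of its windows shared, stood at 11619 CPM per kb and mt-Cytb, the mitochondrial subunit of complex III with none shared, at 9190 CPM per kb. The nuclear copies were low as well: the 7 pseudogenes on chromosome 1 held 3010 counts in all. The low set also held mt-Atp8, with 78 counts and 0 windows shared with annotated nuclear genes. It overlaps mt-Atp6 by 43 bases and lies between mt-Co2 and mt-Atp6 on mtDNA. Nuclear DNA outside annotated genes, as between the chromosome 1 copies of mt-Co2 and mt-Atp6, was not searched. An unannotated nuclear copy of mt-Atp8 would therefore have been missed. Genes with partial copies such as mt-Co1 and mt-Nd4 lay in the high set. How the authors' counting treated reads with several matches is not given in the sources used here, and its part in these levels was not tested. The levels of mt-Co2, mt-Co3, mt-Atp6 and mt-Nd4l are therefore uncertain, and so is mt-Nd4, with 60.7% of windows shared and 3479 CPM per kb. The gene for mt-Nd6 is the only one of the 13 on the light strand and overlaps the end of mt-Nd5 by 14 bases. As the strand mode of counting is not given, its reads and antisense reads cannot be told apart.

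**Figure D1:**
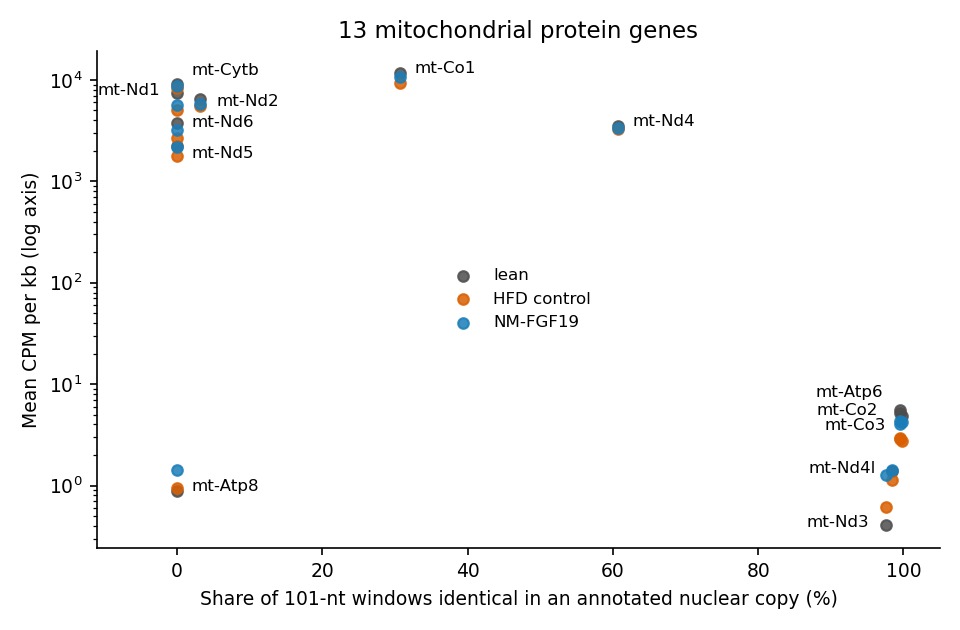
Mean CPM per kb (log axis) of the 13 mitochondrial protein genes against the share of their 101-nt windows that is identical in an annotated nuclear gene, with 1 point per group mean of 4 libraries. The 5 genes with 97.6% to 99.9% of windows shared lie at 5.57 CPM per kb or lower, and all others except mt-Atp8 lie at 1778 or higher.

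Nuclear subunit genes are known to carry promoter sites for NRF1, for ETS factors such as GABP, for YY1 and for estrogen-related receptors (ERR). RefSeq promoters (GRCm38.p6, 250 bases before to 50 after the start) matched 63 of the 79 nuclear genes, with 68 promoters. Both strands were searched. The NRF1 core GCGCATGC lay in 10 of the 68 (14.7%) against 2.71% of all 32851 promoters, and the ETS motif CCGGAAG in 16 (23.5%) against 8.86%. The YY1 motif AAGATGGCG lay in 7 (10.3%) against 1.40%, and the ERR motif AAGGTCA in 8 (11.8%) against 4.72%. At least 1 of the 4 was present in 31 promoters (45.6%) against 16.4% of all. These matches describe letters in a window and were not set against any measured binding. The promoters of Atp5k and Atp5l, both small membrane subunits of ATP synthase, were the 2 with 3 of the 4 motifs, and that of Sdhb, the iron-sulfur subunit of complex II, had the NRF1 and ETS motifs. They are printed 5′ to 3′ on the strand of the gene, with the matches in capitals.
Atp5k, chr5:108434350-108434649, minus strand: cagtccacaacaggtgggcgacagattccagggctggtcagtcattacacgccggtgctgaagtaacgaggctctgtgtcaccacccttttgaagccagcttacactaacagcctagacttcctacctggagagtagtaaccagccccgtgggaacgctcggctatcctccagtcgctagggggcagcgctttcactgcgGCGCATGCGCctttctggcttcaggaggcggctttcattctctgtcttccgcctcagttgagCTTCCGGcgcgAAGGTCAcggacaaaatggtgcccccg
Atp5l, chr9:44920693-44920992, minus strand: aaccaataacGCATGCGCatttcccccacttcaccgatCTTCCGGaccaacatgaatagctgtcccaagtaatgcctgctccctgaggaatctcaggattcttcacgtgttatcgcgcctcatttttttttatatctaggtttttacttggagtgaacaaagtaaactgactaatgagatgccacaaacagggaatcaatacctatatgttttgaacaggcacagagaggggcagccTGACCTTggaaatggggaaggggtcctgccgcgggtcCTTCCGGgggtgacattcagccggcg
Sdhb, chr4:140961021-140961320, plus strand: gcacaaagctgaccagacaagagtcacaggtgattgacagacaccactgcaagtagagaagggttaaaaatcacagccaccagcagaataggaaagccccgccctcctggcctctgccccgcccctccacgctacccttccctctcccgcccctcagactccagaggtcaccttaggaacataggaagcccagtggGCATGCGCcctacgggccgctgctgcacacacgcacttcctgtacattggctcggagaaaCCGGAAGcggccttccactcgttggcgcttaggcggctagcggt
In Atp5k the NRF1 core matched on both strands, in overlapping windows from bases 201 and 203, counted from 1 at the 5′ end of the window. The Atp5l promoter held its NRF1 match at base 11, ETS matches at bases 39 and 275 and an ERR match at base 238.

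Levels of nuclear subunits per exon length differed by complex far less than those of the mitochondrial genes. That contrast rests on mitochondrial genes of the low set, such as mt-Co2, mt-Co3 and mt-Atp6, whose levels are uncertain. In lean livers the median over the 36 genes of complex I was 59.2 CPM per kb, against 131 for complex II, 145 for complex III, 161 for complex IV and 131 for complex V. The highest nuclear gene was Atp5b, the catalytic beta subunit of ATP synthase, at 517 CPM per kb in lean, 539 in HFD control and 509 in NM-FGF19 livers. Ndufa4, which is now placed with complex IV, had 403, 344 and 329 CPM per kb in the same order. At the low end, Ndufs6b stood at 1.10 CPM per kb in lean livers, Cox7a1 at 1.34, Ndufb2 at 3.17 and Atp5s at 3.68. Exon lengths are unions over the annotated transcripts, which gave 4375 nt for Ndufb2 and 4912 nt for Atp5g1, and exon use was not measured. Atp5l stood at 13.7 CPM per kb, and 68.7% of the 101-nt windows of its transcript recurred in 6 other annotated genes, among them Gm10221 with 2275 counts against 2365 for Atp5l itself. It was the only one of 78 nuclear genes compared with 50% or more of its windows shared. Of the other 77, 50 shared none. Atp5b, Atp5a1, Atp5l and the other genes in this paragraph that belong to no isoform pair were named after their values were seen.

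Tissue markers give the setting of the comparisons. The summed level of 9 hepatocyte markers ran from 71819 to 86832 CPM in lean, from 43256 to 63368 in HFD control and from 76781 to 120896 in NM-FGF19 livers. The sums weigh the most abundant markers most. The median log2 change of the 9 was -0.43 in HFD control against lean and 0.07 in NM-FGF19 against HFD control. In NM-FGF19 against lean it was -0.18, opposite in direction to the sums. Between HFD control and lean livers edgeR called 0 of these 9, and it called 5 of 6 Kupffer cell markers lower, 5 of 7 recruited macrophage markers higher and 4 of 8 stellate cell and fibroblast markers higher. Fewer cells of a type and less RNA per cell cannot be told apart in bulk tissue. Markers of striated muscle summed to at most 2.6 CPM in any liver. Those of smooth muscle and pericytes summed to between 60.8 and 104.6 CPM in lean livers. Their sums ran from 93.0 to 149.9 CPM in HFD control and from 103.4 to 127.3 in NM-FGF19 livers. The 6 brown fat markers summed to between 164 and 505 CPM in lean and 112 and 469 in HFD control livers. In NM-FGF19 livers these 6 summed to between 51.6 and 339 CPM. Ucp1 and Zic1 of that list were at 0 in every group. The part of these shifts in the results was not tested.

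Nuclear subunit genes in HFD controls stood close to their lean levels. In HFD control against lean livers, edgeR's quasi-likelihood test called 0 of the 79 nuclear genes higher and 0 lower, where it called 5.04% of all tested genes higher and 3.29% lower. The nuclear median was a log2 change of -0.04, beside -0.02 over all 15274 genes, with 33 nuclear genes above 0 and 46 below. At an unadjusted p under 0.05 there were 0 higher and 2 lower, where 13% of all tested genes were higher and 11.5% lower. The intervals limit what could have been missed: for 68 of the 79 the 95% interval lay within a 1.5-fold change in either direction, and for 76 it lay within 2-fold. The smallest adjusted p of a nuclear gene was 0.178. By complex, the medians were -0.06 for I, 0.05 for II, -0.02 for III, -0.01 for IV and -0.07 for V.

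**Figure D2:**
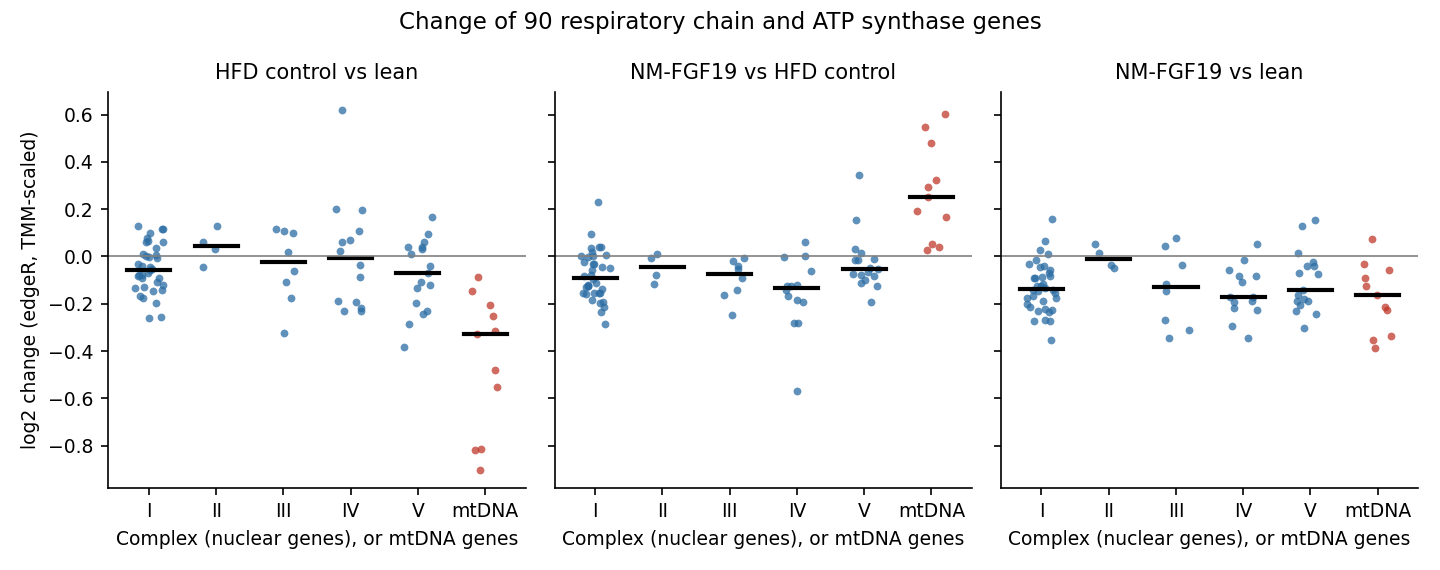
Log2 change (edgeR, TMM-scaled; with library totals alone the mtDNA medians are -0.01, 0.12 and 0.02) of each of the 90 genes in the 3 comparisons, with nuclear genes (blue) split by complex I to V and the 11 mtDNA genes (red) apart; black bars are medians. The nuclear medians lie between -0.17 and 0.05, and the mtDNA medians at -0.33, 0.25 and -0.16.

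Complex II can be read gene by gene, since all 4 of its subunits are nuclear. Sdha, the flavoprotein that oxidises succinate, stood at 510, 460, 399 and 450 CPM in the 4 lean livers, at 440, 468, 483 and 506 in HFD controls and at 444, 505, 500 and 440 in NM-FGF19 livers. The groups overlapped in full. The log2 change between HFD control and lean was 0.06 ± 0.12 (SE; edgeR adjusted p = 0.807) with a 95% interval from -0.21 to 0.33. Sdhb had a log2 change of 0.13 ± 0.15, and the membrane anchors Sdhc and Sdhd had changes of 0.03 ± 0.13 and -0.05 ± 0.16. None of the 4 passed the test in any of the 3 comparisons.

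The catalytic and core subunits of other complexes given here, named after their values were seen, were near their lean levels. Atp5b stood at 991 ± 90.5 CPM (SD, n = 4) in lean, 1033 ± 83.2 in HFD control and 976 ± 64.7 in NM-FGF19 livers. Atp5a1, the alpha subunit of the same enzyme head, stood at 791 ± 80.8, 809 ± 72.9 and 800 ± 48.6 CPM. In complex I, the iron-sulfur subunit Ndufs1 had a log2 change of 0.12 ± 0.12 (SE) between HFD control and lean, and the NADH-binding Ndufv1 one of -0.0045 ± 0.11. In complex III, the core protein gene Uqcrc1 had a change of 0.12 ± 0.13 and Uqcrfs1, which codes for the Rieske iron-sulfur protein, one of 0.11 ± 0.14. All 6 overlapped between the groups, with edgeR adjusted p-values of 0.621 or above. The proteolipid of the ATP synthase ring is coded by a trio of genes, whose changes were -0.23 ± 0.15 for Atp5g1, 0.17 ± 0.11 for Atp5g2 and 0.04 ± 0.16 for Atp5g3.

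The 2 nuclear genes with an unadjusted p under 0.05 in HFD control against lean were Ndufv3 and Atp5l, also named after their values were seen. Ndufv3, an accessory subunit of complex I, stood at 81.3, 97.9, 79.3 and 103 CPM in lean, at 70.4, 73.7, 78.8 and 79.6 in HFD control and at 71.6, 75.7, 79.2 and 83.3 in NM-FGF19 livers. The lowest lean liver lay just under the highest HFD control, and the log2 change was -0.26 ± 0.11 (edgeR adjusted p = 0.178). Atp5l had a log2 change of -0.38 ± 0.17 (adjusted p = 0.179). As 68.7% of its windows recur in other genes, this value is uncertain. Gm10221 stood at 7.13 ± 1.62 CPM in lean and 6.35 ± 1.5 in HFD control livers, beside 7.46 ± 1.37 and 5.72 ± 0.863 for Atp5l. Uqcrh, named likewise, the hinge subunit of complex III, had a change of -0.33 ± 0.21 (adjusted p = 0.384).

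All 11 mitochondrial genes had lower point estimates in HFD control than in lean livers after TMM scaling, against 6 of 11 when libraries were scaled by their totals alone, and none passed edgeR's test. Their median log2 change was -0.33, beside -0.04 for the nuclear genes and -0.02 over all genes, with values from -0.90 to -0.09. At an unadjusted p under 0.05, 4 of the 11 were lower, where 11.5% of all tested genes were. These 4 included mt-Atp6 and mt-Co3, with 977 and 1050 counts in all, whose levels are uncertain because of their nuclear copies. The groups did not overlap for 3 of them, mt-Nd1, mt-Nd6 and mt-Atp6, all lower in HFD control. Over all tested genes 6.89% had groups apart in that direction and 8.4% in the other, in which 0 of the 90 genes lay. Only 2 of the 11 had a 95% interval within 1.5-fold, so the mitochondrial genes are less tightly bounded than the nuclear ones. As mtDNA is transcribed as long precursors, the 11 genes are not independent of each other.

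The smallest adjusted p of the 90 genes was that of mt-Nd1, a membrane subunit of complex I with 0 windows shared with annotated nuclear genes. It stood at 6298, 6204, 8765 and 7206 CPM in lean, at 5071, 4236, 4843 and 5243 in HFD control and at 4969, 5794, 6310 and 4716 in NM-FGF19 livers. Every HFD control lay below every lean liver, and the NM-FGF19 livers reached from the HFD control range into the lean one. The log2 change between HFD control and lean was -0.55 ± 0.17 (edgeR adjusted p = 0.0627), with a 95% interval from -0.92 to -0.18. DESeq2 on the same counts gave -0.55 with an adjusted p of 0.00749 and called it. Over all alternatives run, the adjusted p ranged from 0.00749 to 0.346.

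A similar pattern held for mt-Nd6, a complex I subunit and the only protein coded on the light strand. It stood at 1980, 1761, 2178 and 1878 CPM in lean, at 1425, 1324, 1208 and 1637 in HFD control and at 1548, 1920, 1784 and 1404 in NM-FGF19 livers. The HFD controls again lay below all lean livers, and NM-FGF19 livers fell on both sides of the gap. The log2 change was -0.48 ± 0.16 (edgeR adjusted p = 0.0748; DESeq2 adjusted p = 0.0150). Over the alternatives the adjusted p ranged from 0.0150 to 0.470.

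The other well-covered mitochondrial genes overlapped between HFD control and lean. For mt-Co1, the catalytic subunit of complex IV and the most abundant of the 90 genes, the log2 change was -0.32 ± 0.17 (edgeR adjusted p = 0.283). It stood at 17951 ± 1871 CPM (SD, n = 4) in lean, 14412 ± 1919 in HFD control and 16461 ± 2072 in NM-FGF19 livers. For mt-Nd5 the change was -0.33 ± 0.26, for mt-Nd2 -0.20 ± 0.20, for mt-Cytb -0.14 ± 0.16 and for mt-Nd4 -0.09 ± 0.16. All 4 had edgeR adjusted p-values of 0.481 or above. The value of mt-Nd4 is uncertain, as 60.7% of its windows are shared with annotated nuclear genes. The low-count genes mt-Atp6, mt-Co2 and mt-Co3 had changes of -0.90 ± 0.36, -0.82 ± 0.40 and -0.81 ± 0.32, and mt-Nd4l of -0.25 ± 0.52. Without the 4 members whose windows are shared at 90% or more, the mitochondrial median was -0.32.

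**Figure D3:**
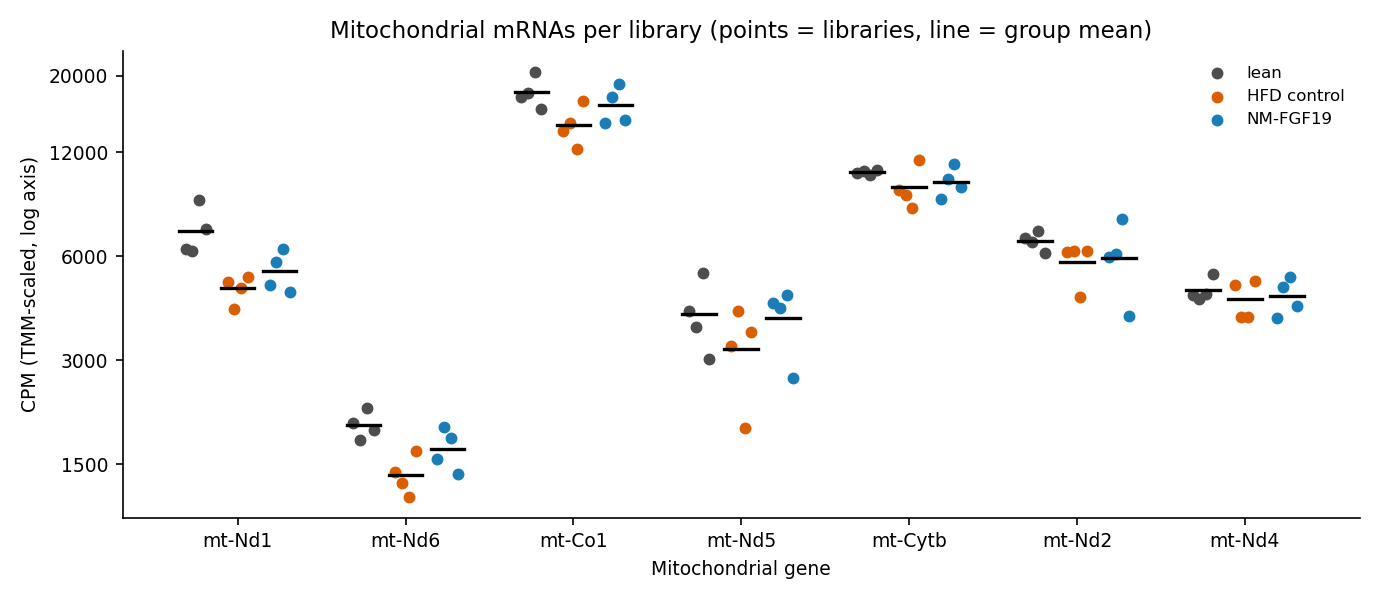
CPM (log axis) of the 7 well-covered mtDNA genes in each library, with lean in grey, HFD control in orange, NM-FGF19 in blue and a line at each group mean. The HFD control and lean points are apart for mt-Nd1 and mt-Nd6 and overlap for the other 5.

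The size of the mitochondrial median and the sign of the nuclear one depended on the scaling. With library totals alone in place of TMM, the median log2 change of all genes moved up by 0.31, and the mitochondrial median became -0.01, with mt-Nd1 at -0.22 (adjusted p = 0.346). The nuclear median became 0.25 under the same scaling. Relative to the median of all genes, the mitochondrial genes stood at -0.31 with TMM and at -0.30 with library totals, and all 11 lay below it under both. A change of scaling moves all genes by nearly the same amount, so the likeness of these values is not separate evidence. As a share of all counts, the 11 genes took 4.71% ± 0.179 (SD, n = 4) in lean, 4.84% ± 0.481 in HFD control and 4.85% ± 0.519 in NM-FGF19 livers. The 79 nuclear genes took 0.899% ± 0.159, 1.09% ± 0.146 and 0.947% ± 0.103. The mitochondrial median was thus below that of other genes in HFD control against lean livers, while the share of the library differed by less than the spread between libraries.

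A single liver of each group also carries weight. Lean 3 had the highest mitochondrial sum (59006 CPM, against 50319 to 51771 in the other lean livers) and the lowest nuclear sum (8542 against 10314 to 10833). HFD control 3 had the reverse: the lowest mitochondrial sum (37122 against 43590 to 50078) and the highest nuclear sum (11108 against 8754 to 10604). Without lean 3 the mitochondrial median between HFD control and lean was -0.22, and without HFD control 3 it was -0.25. Without both, the mitochondrial median between HFD control and lean was -0.15 and the nuclear one -0.18, with 9 of 11 and 65 of 79 genes below 0. mt-Nd1 then changed by -0.42 (edgeR adjusted p = 0.205) and mt-Nd6 by -0.33 (adjusted p = 0.285). These 2 livers hold the extremes of both sums, so leaving them out had to narrow the gap between the mitochondrial and nuclear medians. Lean 3 also had the lowest TMM factor, 0.779 against 0.907 to 0.963 in the other lean livers. The factors also differed by group. They ran from 1.055 to 1.174 in HFD controls, above every lean liver, and from 0.970 to 1.045 in NM-FGF19 livers. The part of these factors was not tested.

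**Figure D4:**
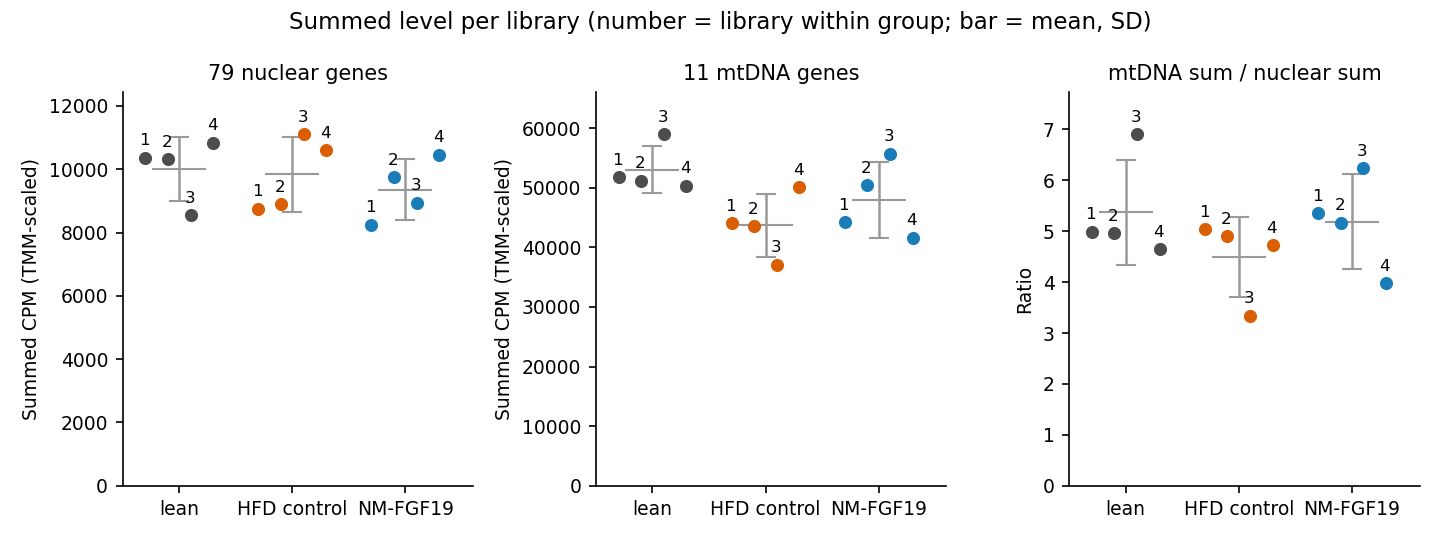
Summed CPM per library of the 79 nuclear genes (left) and the 11 mtDNA genes (middle), and the ratio of the sums (right), with the group mean and SD (n = 4) in grey and libraries numbered within each group. Lean 3 stands at a ratio of 6.91 and HFD control 3 at 3.34, at opposite ends of the 12.

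None of the 90 genes passed a test between NM-FGF19 and HFD control livers. EdgeR called 0 higher and 0 lower, where 0.282% of all tested genes were called higher and 0.151% lower. At an unadjusted p under 0.05 there were 0 in either direction, where 4.75% of all tested genes were higher and 4.2% lower. DESeq2 and limma voom also called 0. The nuclear median was -0.08, with 16 genes above 0 and 63 below, and the mitochondrial median was 0.25, with 11 of 11 above 0 (8 of 11 with library totals alone), beside 0.00 over all genes. The 95% interval lay within 1.5-fold for 70 of the 79 nuclear genes and for 5 of the 11 mitochondrial ones. This comparison and that of HFD control with lean share the HFD control livers, so the opposite signs of the mitochondrial genes in the 2 comparisons are not separate evidence. The change was 0.17 ± 0.17 for mt-Nd1 and 0.25 ± 0.16 for mt-Nd6 (edgeR adjusted p = 0.858 and 0.706). Without HFD control 3 the mitochondrial median was 0.17, with 8 of 11 above 0, and the nuclear one -0.01.

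Groups did not overlap in this comparison for 1 gene of the 90, Ndufs7, a core iron-sulfur subunit of complex I named after its value was seen. It stood at 53.6, 57.3, 62.8 and 60.6 CPM in HFD control and at 45.7, 50.5, 46.5 and 49.7 in NM-FGF19 livers, with lean livers on both sides at 61.6, 49.2, 39.8 and 63.5. The log2 change was -0.28 ± 0.14 (edgeR adjusted p = 0.580). Over all tested genes, 2.38% had groups apart in this direction and 3.23% in the other, so 1 of 90 is not above the background share.

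Against lean livers, NM-FGF19 livers had slightly lower point estimates for most genes and again 0 calls by edgeR in either direction, where 1.01% of all tested genes were called higher and 0.484% lower. DESeq2 called 0 as well. At an unadjusted p under 0.05 there were 0 higher and 3 lower, which were Ndufa8, Cox7a2l and mt-Nd1, while 9.16% of all tested genes were higher and 7.58% lower. The nuclear median was -0.13, with 67 of 79 below 0, and the mitochondrial median -0.16, with 10 of 11 below 0, beside -0.01 over all genes. With library totals alone the median of all genes moved by 0.18, the nuclear median became 0.04 and the mitochondrial one 0.02, so this direction holds only relative to other genes. No gene of the 90 had groups apart here, where 5.46% of all genes were apart upward and 4.84% downward. Ndufa8, an accessory subunit of complex I named after its value was seen, had a log2 change of -0.35 ± 0.14 (edgeR adjusted p = 0.230). Cox7a2l, counted here with complex IV, had -0.34 ± 0.14 (adjusted p = 0.251).

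Complex IV has subunits in liver and in muscle forms, and these livers held mainly the ubiquitous ones. Cox4i1 stood at 280 ± 34.3 CPM (SD, n = 4) in lean, 285 ± 58.3 in HFD control and 249 ± 46.6 in NM-FGF19 livers, while its lung isoform Cox4i2 had 10, 57 and 22 counts in all in the 3 groups. Cox6a1 stood at 214 ± 28.9, 231 ± 43.0 and 212 ± 27.7 CPM, and the muscle form Cox6a2 had 8, 33 and 11 counts. Cox6b1 stood at 162 ± 22.01, 169 ± 29.0 and 151 ± 25.99 CPM, and its testis form Cox6b2 had 15, 38 and 18 counts. Cox8a stood at 141 ± 18.8, 148 ± 23.0 and 135 ± 17.4 CPM against 4, 12 and 2 counts for Cox8b. Cox7a2 stood at 117 ± 18.7, 102 ± 20.9 and 102 ± 26.1 CPM. Its muscle form Cox7a1 stood at 0.240, 0.511, 1.02 and 1.09 CPM in lean, at 0.449, 0.696, 2.24 and 0.966 in HFD control and at 0.375, 0.462, 0.669 and 1.42 in NM-FGF19 livers. These groups overlapped, and the log2 change between HFD control and lean, 0.62 ± 0.60, had an adjusted p of 0.580 by edgeR. HFD control 3 was the highest of the 12.

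Of the regulatory subunits, Ndufa4 stood at 252 ± 39.4 CPM in lean, 215 ± 49.0 in HFD control and 206 ± 60.4 in NM-FGF19 livers. Its hypoxia-responsive relative Ndufa4l2 stood at 2.57, 2.32, 8.21 and 2.54 CPM in lean livers, where lean 3 was alone at the top, and at 2.93 to 6.21 in HFD controls. The change was -0.23 ± 0.21 for Ndufa4 and 0.20 ± 0.44 for Ndufa4l2 between HFD control and lean, with edgeR adjusted p-values of 0.555 and 0.823. The ATPase inhibitor, listed in the symbol table as Atpif1 and outside the family names used, stood at 9.22 ± 0.926, 10.04 ± 1.6 and 10.2 ± 3.85 CPM in the 3 groups and passed no test.

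The nuclear genes moved together from library to library within each group. In lean 3, 2 of the 79 lay above their lean mean, with a median deviation of -0.23 on the log2 scale, and in lean 4, 69 lay above, with a median of 0.17. Among HFD controls, libraries 1 and 2 had 4 and 3 of 79 above the group mean and libraries 3 and 4 had 77 and 75. In the NM-FGF19 group the counts were 4, 60, 18 and 65. Each group thus held livers with nearly all nuclear subunits on the same side of the mean. The group means of the nuclear sum differed by less than this spread, at 10015 ± 1009 CPM (SD, n = 4) in lean, 9840 ± 1192 in HFD control and 9349 ± 960 in NM-FGF19 livers.

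Shorter genes varied more. Across the 79 nuclear genes, exon length and the SD of log2 CPM within groups had a Spearman rho of -0.56, against -0.27 for the mean level and the SD; the genes come from the same 12 libraries and are not independent. The median SD was 0.24 for the 27 shortest genes (348 to 732 nt), 0.21 for the 25 of middle length and 0.16 for the 27 longest (1249 to 4912 nt). The widest were Cox7a1 (0.86), Ndufa4l2 (0.68), Ndufs6b (0.49), Atp5mpl (0.44) and Atp5e (0.41), the last of these coding for the epsilon subunit of ATP synthase. The narrowest were Sdha (0.12) and Atp5b (0.12). The short subunit genes deviated by a median of -0.26 in lean 3, 0.23 in lean 4, 0.29 in HFD control 3 and 0.32 in NM-FGF19 4. Other short genes of the table did much the same: 104 genes of other families in that length range, with a mean log2 CPM of at least 3, deviated by -0.22, 0.21, 0.22 and 0.34 in those libraries. The 7907 other long genes deviated by 0.00, 0.01, -0.04 and -0.06. Short genes outside the respiratory chain thus moved with the short subunit genes in these libraries, and the part of transcript length in the shared movement was not tested. The subunit genes also departed from other genes of their length. The long ones deviated by -0.184 in lean 3, -0.155 in HFD control 1, 0.103 in HFD control 4 and -0.142 in NM-FGF19 1, where other long genes deviated by at most 0.01. In HFD control 1 the short ones deviated by -0.177, against -0.079 for other short genes.

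**Figure D5:**
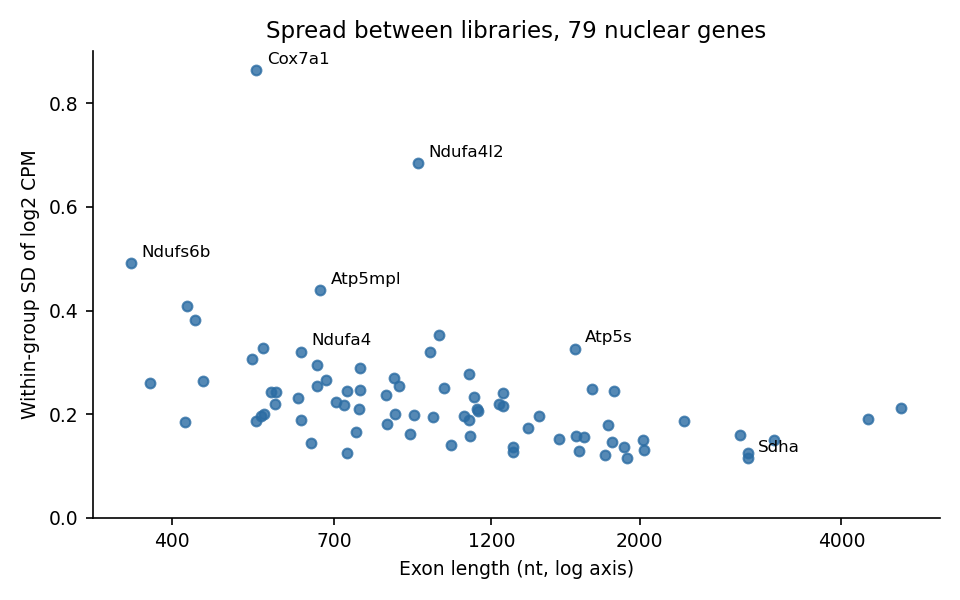
Within-group SD of log2 CPM of each of the 79 nuclear genes against its exon length (log axis). The spread falls from a median of 0.24 among the 27 shortest genes to 0.16 among the 27 longest, and Cox7a1 and Ndufa4l2, at low levels, lie highest.

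Genes that build and feed the chain were read from 9 further lists, beside the 5.04% of all tested genes called higher and 3.29% called lower in HFD control against lean. In HFD control against lean, edgeR called 1 of 17 complex I assembly factors (0 higher, 1 lower), 0 of 10 for complexes II and III, and 1 of 26 for complexes IV and V (lower). It called 0 of 23 electron carriers and coenzyme Q genes, 0 of 26 genes of mtDNA upkeep and transcription, 0 of 77 mitochondrial ribosome genes and 0 of 14 TCA cycle genes. The medians of these 7 lists lay between -0.12 and 0.09. Among 15 mitochondrial carriers and uncoupling proteins 2 were higher and 1 lower, and among 15 regulators of mitochondrial biogenesis 1 was higher. In the comparisons of NM-FGF19 with HFD control and with lean, 0 genes of any of these 9 lists were called, where at most 1.01% of all tested genes were called in either direction.

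The carrier genes that passed the test move fatty acids, ATP and citrate. Slc25a20, the carnitine-acylcarnitine carrier that brings fatty acids into the matrix, stood at 83.9, 77.8, 59.8 and 69.6 CPM in lean, at 108, 92.5, 150 and 143 in HFD control and at 76.5, 94.95, 99.2 and 91.4 in NM-FGF19 livers. It rose in HFD controls by 0.76 ± 0.17 (log2; edgeR adjusted p = 0.0173), and did not pass without HFD control 3. Slc25a4, the muscle and heart form of the ADP/ATP carrier, rose by 1.16 ± 0.27 (adjusted p = 0.0209) from 6.08 ± 2.16 CPM. Slc25a1, the citrate carrier that supplies lipid synthesis, fell by 0.61 ± 0.17 (adjusted p = 0.0398). Slc25a4 did not pass when lean 2, lean 4 or HFD control 3 was left out, and Slc25a1 did not pass when any 1 of the 8 lean and HFD control livers was left out. Over the alternatives the adjusted p ranged from 0.000787 to 0.0707 for Slc25a20, from 0.00119 to 0.0623 for Slc25a4 and from 0.00926 to 0.304 for Slc25a1.

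Both assembly factors called were lower in HFD controls. Higd1a, a factor of complex IV that responds to hypoxia, stood at 40.9, 40.9, 49.97 and 52.2 CPM in lean and at 31.4, 33.3, 34.5 and 34.5 in HFD control livers, with no overlap. It fell by 0.46 ± 0.11 on the log2 scale (edgeR adjusted p = 0.0233). Foxred1, a factor of complex I, fell by 0.40 ± 0.11 (adjusted p = 0.0385), from 42.0 ± 3.03 to 31.9 ± 3.59 CPM. Higd1a did not pass without lean 3, lean 4, HFD control 1 or HFD control 3, nor did Foxred1 without any 1 of the lean livers, HFD control 1 or 3, or NM-FGF19 1, 2 or 3. The adjusted p ranged from 0.00586 to 0.418 for Higd1a and from 0.0185 to 0.601 for Foxred1, highest with library totals alone.

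Of the regulators, Esrrg, an orphan receptor of the ERR family, rose in HFD controls by 1.94 ± 0.50 (log2; edgeR adjusted p = 0.0326). Its level was low, at 0.696 ± 0.459 CPM in lean, 2.71 ± 0.908 in HFD control and 2.86 ± 1.55 in NM-FGF19 livers, and leaving out lean 2, lean 4 or HFD control 1, 3 or 4 took it past the threshold, with adjusted p-values over the alternatives from 0.00171 to 0.0870. Nrf1, whose motif was searched above, stood at 12.2, 12.2, 16.5 and 14.8 CPM in lean and at 10.5, 10.5, 9.40 and 10.2 in HFD control livers. The groups were apart, and the change of -0.46 ± 0.13 had an adjusted p of 0.0525 by edgeR and 0.0296 by DESeq2. The coactivators Ppargc1a and Ppargc1b, the receptor Esrra, the ETS factor Gabpa and the mtDNA transcription factor Tfam passed no test, with changes of -0.29 ± 0.39, 0.06 ± 0.32, 0.24 ± 0.22, -0.01 ± 0.15 and -0.03 ± 0.13. Cyc1, the cytochrome c1 subunit of complex III, had a change of 0.03 ± 0.11. Cycs, the cytochrome c that carries electrons from complex III to IV, had one of 0.23 ± 0.16. The acyl carrier Ndufab1, also a subunit of complex I, had one of -0.10 ± 0.14. Cyc1 and Ndufab1 lie outside the family names used. Ucp2, a carrier of the uncoupling protein family, had a change of 0.45 ± 0.25 (adjusted p = 0.287), with HFD control 3 highest at 123 CPM.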

How the data were processed

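Whole-liver RNA (100 ng) was sequenced as 101-nt paired reads from a stranded mRNA kit, per the labels' protocols. The deposited values are raw read counts per gene; Trimmomatic, STAR, featureCounts and the build mm39 are named in the submitters' processing notes. Their versions, the annotation, the strand mode and how reads with several matches were counted were not given in the sources used here. Libraries held 23743415 to 33257260 counts. IDs were paired with symbols for 52083 of 55359 genes; the other 3276 held 0.515% of counts.

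The 12 libraries were fitted together with edgeR 4.0.16 (R 4.3.3): TMM scaling, a filter with a minimum count of 10, robust quasi-likelihood F tests (2-sided) and Benjamini-Hochberg adjustment over 15274 genes, called at 0.05. An SE and a 95% interval accompany each log2 change. CPM per kb used exon lengths, and shared windows used transcripts, of GENCODE M21 (GRCm38). The scripts were tested on simulated data. DESeq2 1.42.0, limma 3.58.1, other scalings and filters, a replicate block and leaving out each library were alternatives. Leaving the genes with over 90% of windows shared out of the mitochondrial median was chosen after seeing the data.

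The members and gene lists were chosen with earlier results of these data known. Genes named by rule were the mitochondrial members, complex II, the isoform pairs of complex IV, the inhibitor of ATP synthase, called members or list genes and 10 regulators or carriers; others are said to be named after their values were seen. Replicate numbers come from the titles. Same-numbered samples of different groups correlated at -0.363 to 0.0712 in their deviations from group means, so the numbers do not pair the samples. The labels number replicates within each group without stating that each is a separate animal. The count columns carry a different number for each library. Between libraries of a group the counts differed by a chi-square of at least 40.67 per degree of freedom, well above counting noise alone. The p-values measure the spread between these samples, which are taken here as separate mice. High-fat diet animals sampled before treatment were not analysed here.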

Additional observations from a re-analysis of the deposited data

Results flagged for a closer look

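In 10 of 144 groups of 4 libraries checked, the highest or lowest library stood apart from the other 3 by more than Dixon's 95% limit for 4 samples, a limit on the gap as a share of the range. Chance alone marks about 1 in 20 groups.

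Lean 3 was the outlying library of the lean group in each of its 4 cases. Its Ndufa4l2 level was 8.21 CPM against 2.57 in the next library (gap 0.9582 of the range). Its Atp5g3 level was the lowest, 251 against 317 CPM (0.8347). Its mitochondrial sum was the highest, 59006 against 51771 CPM (0.8329), and so was its ratio of mitochondrial to nuclear sum, 6.91 against 4.99 (0.8466).

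Among HFD controls, library 3 had the lowest mt-Nd2, 4563 against 6167 CPM (0.969), and the highest Cox7a2l, 72.9 against 59.4 CPM (0.8456). HFD control 1 had the lowest Atp5a1, 701 against 829 CPM (0.8412). In the NM-FGF19 group, library 4 was highest for 3 short genes: Ndufa4 at 295 against 183 CPM (0.8502), Uqcrh at 202 against 128 CPM (0.8327) and Atp5mpl at 104.7 against 52.3 CPM (0.8799).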

How the results depend on the processing

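Of the values that answer a comparison, 292 stayed within limits under the alternatives and 5 moved; the limit was 1.5 times for counts and 1 SD for medians and sums. For medians it is the SD between libraries of the members' median log2 CPM, which is wide for the mitochondrial genes: the mitochondrial median in HFD control against lean was -0.33 after TMM scaling and -0.01 when library totals were used, within 1 SD. With library totals alone, 1 member was called higher in HFD control against lean (Atp5g2, log2 0.48, adjusted p = 0.0355), the nuclear median was 0.25, and the summed CPM of nuclear members, lean, was 8998 and the summed CPM of mitochondrial members, lean, was 47175, against 10015 and 53074 with TMM. With DESeq2, 2 members were called lower in that comparison. Of the values of single named genes, 4210 stayed on their side of the threshold, 10 came to pass it and 52 ceased to. No called value changed sign. With 1 library left out, the mitochondrial medians ran from -0.46 to -0.22 (HFD control against lean), 0.11 to 0.34 (NM-FGF19 against HFD control) and -0.27 to -0.08 (NM-FGF19 against lean), and the nuclear ones from -0.11 to 0.03, -0.18 to -0.01 and -0.21 to -0.06. With the replicate block, 0 members were called, and the nuclear and mitochondrial medians in HFD control against lean were -0.04 and -0.31. The replicate block called 384 genes higher and 209 lower in that comparison, against 770 and 502 without it. DESeq2 called 1266 and 875 there, library totals alone 2383 and 228, and the fit without HFD control 3 331 and 206. DESeq2 called 166 and 114 genes in NM-FGF19 against HFD control, where edgeR called 43 and 23. The cause of these shifts was not tested. For genes at a few counts per library, such as mt-Nd4l with 135 in all, depth limits the precision.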
